A study of Mus musculus with 2 samples.

Results

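The genes described here are the mouse genes named for the translocases of the outer (Tomm) and inner (Timm) mitochondrial membranes. They were chosen by symbol alone, as Tomm or Timm followed by a digit with pseudogenes left out, which gave 26 of the 43346 mouse genes in the tables. Of these, 25 are protein coding, 10 on the outer and 15 on the inner side, and 1, Tomm6os, is an RNA on the strand opposite Tomm6. Most mitochondrial proteins are made in the cytosol and enter the organelle through the TOM complex, a channel with receptors and small subunits in the outer membrane. Proteins with a cleavable presequence then pass through the TIM23 complex into the inner membrane or the matrix, while carrier proteins are escorted by the small TIM chaperones of the intermembrane space to the TIM22 complex. In erythroid cells the mitochondria carry out steps of heme synthesis and are removed late in maturation.

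RNA selected for poly(A) tails was sequenced from both ends of the fragments in G1E-ER4 cells, an immortalized mouse erythroid line that has no functional Gata1 gene of its own and expresses GATA1 joined to an estrogen receptor's ligand-binding domain. Both libraries, biological replicates 1 and 2 of the labels, came from cells given 10 nM 17beta-estradiol for 24 h, which activates the fused GATA1 and starts differentiation. There is 1 group and no comparison of conditions, and since both libraries are filed under 1 biosample, what separates them may be technical. A difference between the libraries is therefore a difference between these libraries and says nothing of estradiol, and in bulk RNA fewer cells of a type and less RNA per cell cannot be told apart.

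The libraries held 70451042 and 13841487 estimated counts, a 5.09-fold difference in depth, of which the Tomm and Timm genes took 0.129% and 0.0901%. All 13 erythroid markers reached 1 transcript-per-million (TPM) in both libraries, as did 3 of 6 megakaryocyte markers (Itga2b, Gp1ba and Gp9), while Pf4 and Ppbp had 0 counts. None of the 25 markers of mast cells, neutrophils, monocytes, B cells, T and NK cells or endothelial and stromal cells did so. The erythroid markers went both ways between the libraries: the globin gene Hbb-bs had 122878 and 45332 TPM, whereas the transcription factor gene Klf1 had 665 and 2351 TPM and Gata1 had 3038 and 2940 TPM. Their summed level, mostly globin, was 237347 TPM in replicate 1 and 95303 TPM in replicate 2. Its part in the differences below was not tested. Gata1 was counted among these markers, but its level can include RNA of the fused GATA1, which was not told apart here.

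In 5 of the detected genes of the inner side (Timm10b, Timm50, Timm23, Timm17b and Timm17a) the transcript with the highest level was, in both libraries, an annotated retained intron, a transcript in which part of an intron is kept and for which no protein is annotated. The sequences below show, for 4 of them, the edge where such a transcript runs from coding exon (capitals) into or out of the kept intron (lower case), because the levels and the inner-to-outer comparison turn on these transcripts. Each is 40 bases, 5′ to 3′ on the strand of the gene, from the mm10 transcripts of GENCODE M21. The Timm23 edges lie at chr14:32198949-32198988, chr14:32193834-32193873 and chr14:32191322-32191361 on the minus strand, those of Timm50 at chr7:28310276-28310315 and chr7:28306510-28306549 on the minus strand, and those of Timm17b at chrX:7906180-7906219 and chrX:7906261-7906300 on the plus strand. The edges of Timm10b lie at chr7:105640793-105640832 and chr7:105641209-105641248 on the plus strand.
Timm23-204, end of exon 2 of Timm23-201: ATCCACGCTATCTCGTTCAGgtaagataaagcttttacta
Timm23-205, end of exon 3 of Timm23-201: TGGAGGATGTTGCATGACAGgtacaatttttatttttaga
Timm23-207, end of exon 5 of Timm23-201: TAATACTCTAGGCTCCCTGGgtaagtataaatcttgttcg
Timm50-204, end of exon 3 of Timm50-201: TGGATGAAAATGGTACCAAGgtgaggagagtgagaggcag
Timm50-206, start of exon 10 of Timm50-201: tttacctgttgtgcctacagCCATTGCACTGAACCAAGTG
Timm17b-203, end of exon 4 of Timm17b-201: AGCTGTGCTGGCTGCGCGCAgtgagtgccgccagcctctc
Timm17b-203, start of exon 5 of Timm17b-201: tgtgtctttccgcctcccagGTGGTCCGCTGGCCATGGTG
Timm10b-205, start of exon 2 of Timm10b-204: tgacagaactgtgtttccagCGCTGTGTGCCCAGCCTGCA
Timm10b-205, end of exon 3 of Timm10b-204: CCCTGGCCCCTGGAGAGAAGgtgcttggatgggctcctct

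The kept intron starts with gt where the exon ends and ends with ag where the exon starts in all 9 windows, the letters of the usual splice sites. Timm17b-203 keeps the whole of intron 4 (81 bases). The other transcripts keep an end of an intron: Timm23-204 has 145 of the 5021 bases of intron 2, Timm50-204 has 79 of the 195 bases of intron 3, and Timm50-206 has 135 of the 292 bases of intron 9. These transcripts are short: 441 bases for Timm23-204, 394 for Timm50-204, 449 for Timm50-206 and 444 for Timm10b-205. TPM divides counts by effective length, so a given number of fragments gives a higher TPM on them than on the longer coding transcript. They also share exons with it: 291 bases of Timm50-204 and 206 of Timm50-206 are coding sequence of Timm50-201. Their levels are deposited estimates. Reads over introns or these edges were not examined, so intron retention itself was not measured.

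At least 1 TPM in both libraries, the level called detected here, was reached by 19 of the 25 protein-coding members. Over all protein-coding genes it was 7107 of 21474. The median of the mean TPM was 33.5 over the 19 detected members, beside 18.6 over all 7444 detected genes. The members ran from 0 TPM to a mean of 238 TPM. By mean TPM the order began with Timm10b, Timm50, Tomm40, Tomm6 and Timm23, with between 86.3% and 93.0% of detected genes below them, but between each neighbouring pair of these 5 the gap was smaller than the SD of at least 1 of the pair. The order ended, among detected members, with Tomm34, Timm17a and Timm8a1.

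**Figure D1:**
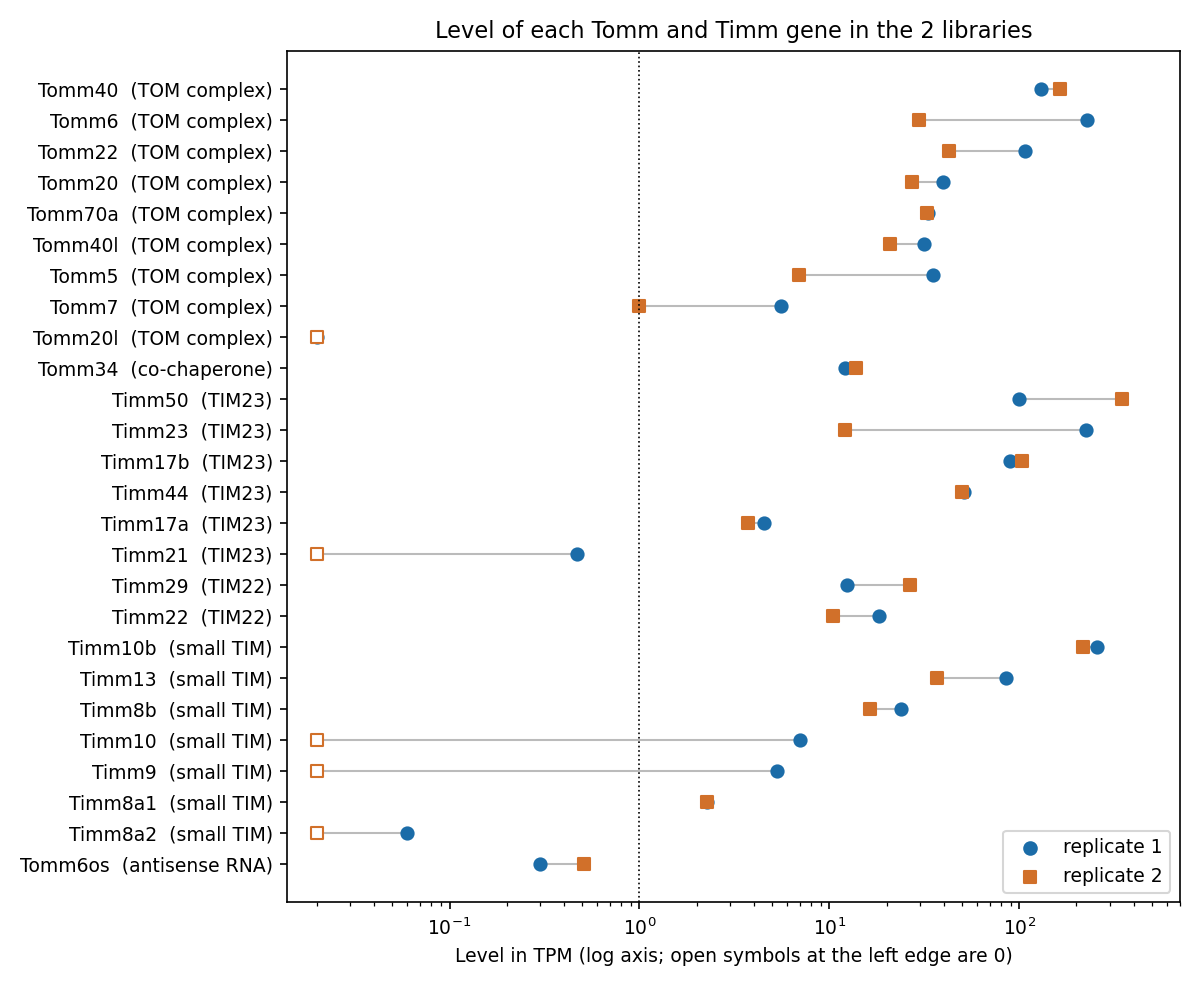
Level of the 26 Tomm and Timm genes in TPM (log axis) in replicate 1 (circles) and replicate 2 (squares), grouped by the complex of the protein; a grey line joins the libraries, open symbols stand for 0 and the dotted line is 1 TPM. Tomm40, Tomm70a, Timm44 and Timm17b lie close in the libraries, whereas Timm23, Tomm6, Tomm5 and Tomm7 are lower in replicate 2 and Timm10 and Timm9 are at 0 there.

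The channel gene had the highest mean level of the TOM genes, above Tomm6 by less than the spread of Tomm6. Tomm40 (ENSMUSG00000002984.12, mm10 chromosome 7, 19701313 to 19715438), which forms the import pore, had 130 TPM in replicate 1 and 163 in replicate 2 (147 ± 23.4, SD, n = 2). Coding transcripts made up 98.7% and 95.5% of that level, and Tomm40-202 led in both libraries. Its paralog Tomm40l (chromosome 1, 171216011 to 171222514) had 31.3 and 20.7 TPM, so Tomm40 was 4.15 and 7.87 times as high per length. On the log2 scale with 0.1 TPM added, this ratio was 2.51 ± 0.65 (SD, n = 2) and it was 3.28 ± 0.35 for coding transcripts alone. In replicate 1 the leading Tomm40l transcript was Tomm40l-208, annotated without a protein, at 16.3 TPM against 1.87 TPM in replicate 2. Exons of Nr1i3, on the opposite strand, cover 64.3% of the exon bases of Tomm40l, and Nr1i3 itself had 0.02 and 0 TPM, and no source used here says whether the counting used strand. In all, exons of 13 of the 26 members overlap exons of another gene, 4 on the same strand and 12 on the opposite one.

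The receptors bind the incoming proteins on the cytosolic face. Tomm22 (ENSMUSG00000022427.3, chromosome 15, 79670861 to 79673400), the central receptor, had 108 TPM in replicate 1 and 42.8 in replicate 2. Tomm20, the presequence receptor, had 39.9 and 27.2 TPM. Tomm70a, the receptor for carrier precursors, had 32.9 and 32.7 TPM, the closest pair among the detected outer membrane genes. Tomm20l, a paralog of Tomm20, had 0 counts in both libraries, which allows up to 0.0426 and 0.217 counts-per-million (CPM) at a limit of 3 counts. With 0.1 TPM added, Tomm20 lay 8.37 ± 0.39 (SD, n = 2) log2 units above Tomm20l, a value set largely by the added 0.1 since Tomm20l is at 0. The receptor genes detected were Tomm22, Tomm20 and Tomm70a.

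The small subunits, which assemble and stabilize the channel, were the outer membrane genes that differed most between the libraries. Tomm6 (ENSMUSG00000033475.11, chromosome 17, 47686646 to 47688386) had 226 TPM in replicate 1 and 29.7 in replicate 2. Tomm5 (ENSMUSG00000078713.4, chromosome 4, 45105208 to 45108114) had 35.1 and 6.88 TPM. Tomm7 (ENSMUSG00000028998.6, chromosome 5, 23838944 to 23844161) had 5.53 and 0.99 TPM, just under the level called detected in replicate 2. All 3 were lower in replicate 2, where Tomm6 still stood above the median of detected genes (14.7 TPM). Their counts there were 167, 34 and 11, against 7507, 1228 and 371 in replicate 1. The gene Gm21981 shares 76.0% of the Tomm6 exon bases on the same strand, and it had 0.72 and 0 TPM. Usp49, which shares 93 bases on the opposite strand, had 57.1 and 49.5 TPM, above Tomm6 in replicate 2. Tomm6os, on the opposite strand with 219 shared exon bases, had 0.30 and 0.51 TPM. The cytosolic co-chaperone Tomm34, which binds precursors and heat shock proteins, had 12.1 and 13.7 TPM.

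The TIM23 genes had a summed level of 469 TPM in replicate 1, below the 609 TPM of the TOM complex, and of 518 TPM in replicate 2, above its 324 TPM, yet coding transcripts made up only 20.4% and 15.4% of it. Timm50 (ENSMUSG00000003438.13, chromosome 7, 28305516 to 28312072), the receptor that takes presequences from the TOM side, had 99.8 TPM in replicate 1 and 349 in replicate 2. Timm23 (ENSMUSG00000013701.8, chromosome 14, 32180162 to 32201898), the channel subunit, had 224 TPM in replicate 1 and 12.1 in replicate 2. These genes went opposite ways: Timm50 was high in replicate 2 and Timm23 in replicate 1. Most of either level in TPM was assigned to annotated retained introns. In estimated counts, coding transcripts held 3180 of 4514 for Timm50 in replicate 1 and 130 of 1335 in replicate 2. For Timm23 they held 716 of 5244 and 41 of 79.

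The annotated retained introns of Timm50 shown above, Timm50-204 and Timm50-206, had estimated levels of 38.2 and 21.9 TPM in replicate 1. In replicate 2 they had 127 and 199 TPM. The coding transcript Timm50-201 had 33.8 TPM in replicate 1 and 8.41 in replicate 2, the opposite direction to the gene as a whole. Its share of the gene was 33.9% and 2.41%. For Timm23, the retained intron Timm23-204 had 173 TPM in replicate 1 and 0 in replicate 2, where Timm23-205 led with 8.62 TPM from 38.1 counts. The coding transcript Timm23-201 had 10.2 and 3.51 TPM, or 716 and 40.9 estimated counts. For Timm23, then, gene and coding transcript were both higher in replicate 1.

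Timm17b and Timm17a encode alternative partners of the channel. Timm17b (chromosome X, 7899357 to 7908351) had 89.3 and 103 TPM and Timm17a (ENSMUSG00000062580.5, chromosome 1, 135295213 to 135313778) had 4.52 and 3.73 TPM. Timm17b was thus 19.8 and 27.6 times as high per length, a log2 ratio of 4.51 ± 0.34 (SD, n = 2), and 4.28 ± 0.28 for coding transcripts alone. Timm17b-203, with intron 4 kept, had 66.4 and 83.3 TPM beside 22.9 and 19.6 TPM for the coding Timm17b-201. Timm17a-204, also annotated as a retained intron, had 3.60 and 2.67 TPM, and the coding transcripts of Timm17a summed to 0.93 and 1.06 TPM. By TPM, both genes of the pair therefore had a transcript without a protein in the lead in both libraries. In estimated counts, coding transcripts held 3518 of 6306 for Timm17b in replicate 1 and 494 of 1082 in replicate 2. For Timm17a they held 132 of 234 and 4 of 17.

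Timm44, which tethers the matrix import motor to the channel, had 51.29 and 49.99 TPM, and here a coding transcript led in both libraries. That transcript, Timm44-201, had 27.2 TPM in replicate 1 and 47.1 in replicate 2. In replicate 1 Timm44-209, a transcript with no annotated protein, added 16.9 TPM, and it was at 0 in replicate 2. Timm21, which links TIM23 to the TOM complex and the respiratory chain, had 0.47 TPM from 38 counts in replicate 1 and 0 counts in replicate 2.

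**Figure D2:**
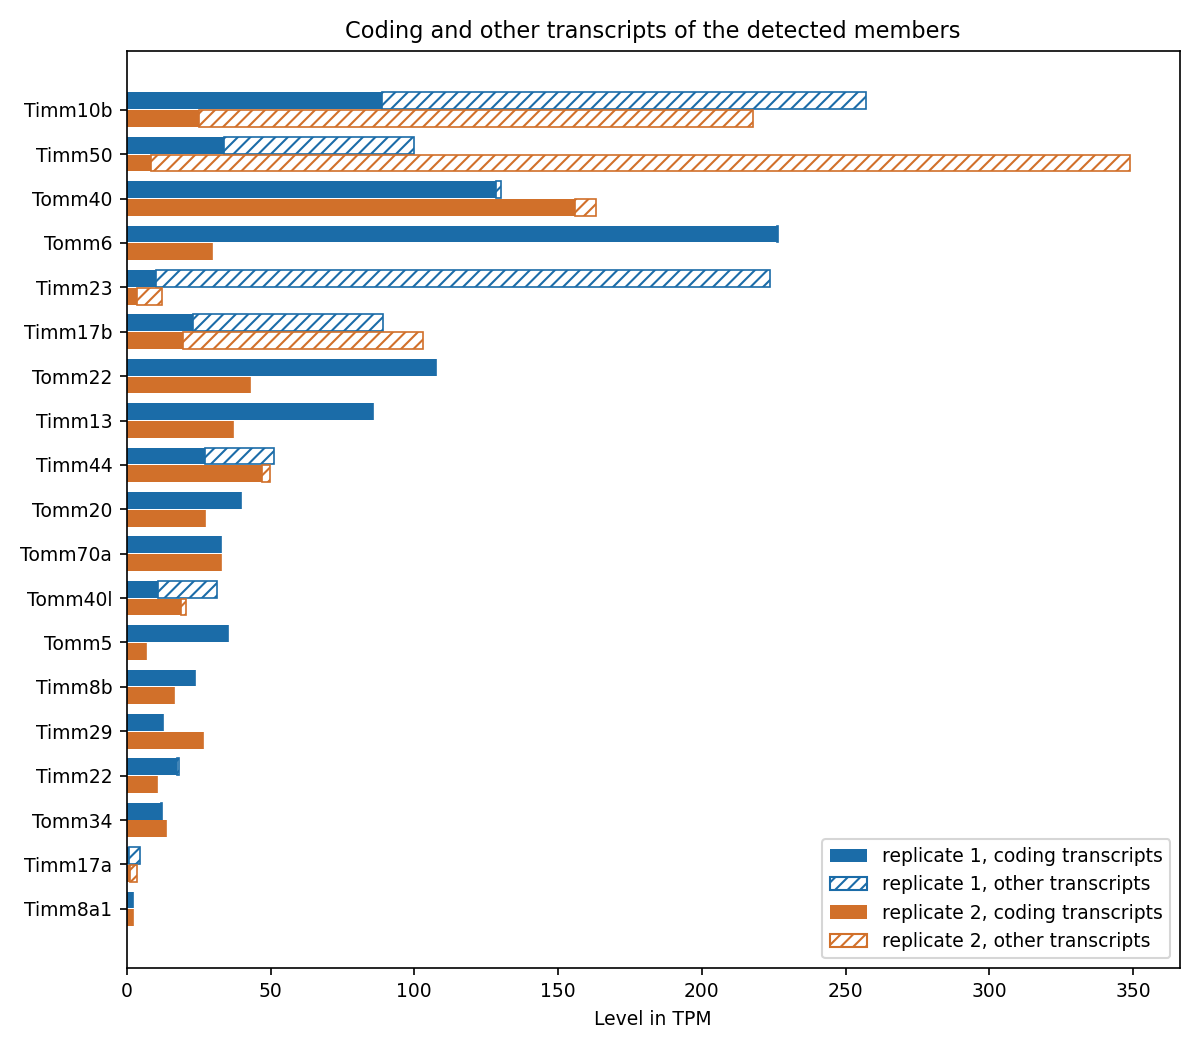
Level in TPM (linear axis from 0) of the 19 detected protein-coding members in replicate 1 (upper bar) and replicate 2 (lower bar), split into coding transcripts (filled) and all other transcripts (hatched). The hatched part is most of the bar for Timm10b, Timm50, Timm23, Timm17b and Timm17a in both libraries and is small or absent for the TOM genes other than Tomm40l in replicate 1.

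The TIM22 genes were moderate in level. Timm29 (ENSMUSG00000048429.10, chromosome 9, 21592722 to 21595970), a subunit that joins TIM22 to the outer membrane complex, had 12.5 TPM in replicate 1 and 26.5 in replicate 2. Timm22, the carrier channel itself, had 18.3 and 10.4 TPM, most of it on the incomplete coding transcript Timm22-203 (88.7% of the gene in both libraries). The pair exchanged order between the libraries.

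Among the small TIM chaperones, Timm10b (ENSMUSG00000089847.3, chromosome 7, 105640056 to 105643637), which docks the chaperones to TIM22, had 257 and 218 TPM, the highest mean of all members as deposited (238 ± 27.8, SD, n = 2). Timm10b-205, the retained intron shown above, had 121 and 130 TPM, and coding transcripts summed to 88.8 and 25.1 TPM. Of the 11 transcripts that the deposited entry holds, GENCODE M21 gives 3 to another gene, Gm45799. One of these, the coding Gm45799-201, had 58.7 TPM in replicate 1 and 5.05 in replicate 2, so part of the coding level counted for Timm10b belongs to that gene in the later annotation. Without the 3, an alternative chosen after seeing the data, Timm10b had 190 and 212 TPM (201 ± 16.0, SD, n = 2) and ranked below Timm50, and its coding transcripts summed to 22.7 and 20.1 TPM.

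Timm13 (ENSMUSG00000020219.6, chromosome 10, 80899450 to 80900969), which works with Timm8 proteins, had 85.6 TPM in replicate 1 and 36.8 in replicate 2. Timm8b had 23.9 and 16.4 TPM, and Timm8a1, the mouse counterpart of the human deafness-dystonia gene, had 2.28 and 2.26 TPM. Timm8b was 10.5 and 7.27 times as high as Timm8a1 per length, a log2 ratio of 3.07 ± 0.37 (SD, n = 2). Timm8a2 had 3 counts in replicate 1 and 0 in replicate 2, and with 0.1 TPM added its log2 distance below Timm8a1 was 4.23 ± 0.47 (SD, n = 2), which rests on the added 0.1. The deposited posterior SD of the Timm8a1 count was 9.89 in replicate 1 and 4.06 in replicate 2, the largest among members relative to its count, a spread that arises where fragments also fit other entries; it was 0 in both libraries for 20 of the 26 members.

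Timm9 (ENSMUSG00000021079.11, chromosome 12, 71123173 to 71136684) and Timm10 (ENSMUSG00000027076.6, chromosome 2, 84826997 to 84830213) encode the subunits of the essential TIM9-TIM10 chaperone. Timm9 had 5.31 TPM from 238 counts in replicate 1 and 0 counts in replicate 2. Timm10 had 6.98 TPM from 259 counts in replicate 1 and 0 counts in replicate 2. Both partners were low in replicate 1 and without a count in replicate 2, so neither was called detected, while Timm13 and Timm8b of the other small TIM chaperone were. In the deposited posterior means they were 0.22 and 0.34 TPM in replicate 2.

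The outer and inner sides were then set beside each other within each library. Summed TPM was 621 for the outer and 881 for the inner genes in replicate 1, and 338 and 828 in replicate 2. The log2 ratio of outer over inner was -0.51 in replicate 1 and -1.29 in replicate 2 (-0.90 ± 0.56, SD, n = 2). No test was made, because with n = 2 the smallest p of an exact sign-flip test is 0.5. For coding transcripts alone, an alternative chosen after seeing the data, the sums were 599 and 338 TPM in replicate 1 and 329 and 197 TPM in replicate 2, and the ratio turned to 0.82 and 0.74 (0.78 ± 0.06, SD, n = 2). With all transcripts the ratio also turned positive in TMM-scaled CPM, which is not corrected for length (0.49 in replicate 1 and 0.14 in replicate 2), and as a ratio of medians (0.89 and 0.98). Without the small TIM genes it was 0.31 in replicate 1 and -0.71 in replicate 2. The direction between the membranes thus depends on the unit, the summary and the transcripts counted. Coding transcripts were 96.4% and 97.3% of the outer sum and 38.4% and 23.8% of the inner sum. These are shares of TPM, in which a count on a short transcript weighs more, and not shares of counts.

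A low coding share is common in these tables. Coding transcripts made up less than 50% of the level in 20.95% of all detected protein-coding genes in replicate 1 and in 24.1% in replicate 2. Among the 19 detected members it was 6 genes in replicate 1 (Timm10b, Timm50, Timm23, Timm17b, Timm17a and Tomm40l) and 5 in replicate 2, the same ones without Tomm40l. Of the 13 detected members with more than 1 transcript, 8 kept 1 leading transcript across the libraries. The other 5 had a different one in each (Timm23, Timm50, Tomm34, Tomm40l and Tomm5). Some of these leads are narrow: Tomm34-202 and Tomm34-201 had 6.07 and 6.02 TPM in replicate 1. In replicate 2 Tomm5-201 led Tomm5-202 with 2.82 against 2.35 TPM, from 9.84 and 14.46 counts.

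**Figure D3:**
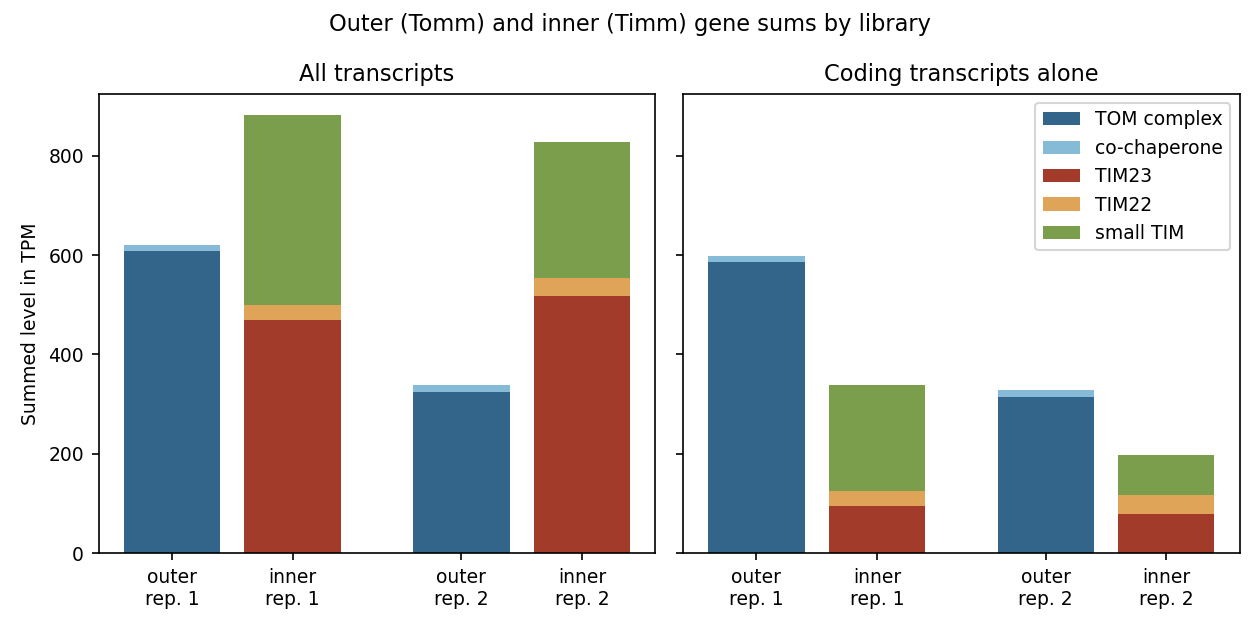
Summed level in TPM of outer (Tomm) and inner (Timm) protein-coding genes in each library, stacked by complex, for all transcripts (left) and for coding transcripts alone (right). With all transcripts the inner bar is the higher in both libraries (881 against 621 and 828 against 338 TPM), and with coding transcripts the outer bar is (599 against 338 and 329 against 197 TPM).

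To compare the libraries gene by gene, rounded counts were scaled by TMM, which takes most genes as equal between libraries, and each gene averaging at least 1 scaled CPM was put to an exact binomial test, two-sided. A gene was called with a Benjamini-Hochberg adjusted p under 0.05 over all 8884 genes tested and at least 2-fold. The test holds counting error only, since each side is 1 library, and so do all intervals below, since the labels name no molecular identifiers. Of the 23 members tested, 9 were called higher in replicate 1 and 1 higher in replicate 2, beside 30.0% and 17.9% of all genes tested. The median log2 ratio of replicate 2 over replicate 1 was -0.34 over the tested members and -0.20 over all genes tested, so calls are common throughout these libraries. The 10 calls hold 4 of the 8 TOM genes tested, 2 of 5 TIM23 genes, 1 of 2 TIM22 genes and 3 of 6 small TIM genes.

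Tomm6 was 6.70-fold higher in replicate 1, a log2 ratio of -2.74 (95% exact interval -2.97 to -2.52; exact binomial test, adjusted p = 9.69e-253). Tomm5 followed with -2.42 (-2.97 to -1.94), Tomm7 with -2.32 (-3.35 to -1.47) and Tomm22 with -1.18 (-1.33 to -1.04). Tomm40, with 0.43, Tomm20, with -0.43, and Tomm70a, with 0.12, stayed under 2-fold. The called TOM genes are the small subunits and the central receptor, whereas the channel gene and the other receptors were not called.

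On the inner side Timm23 was 9.88-fold higher in replicate 1, a log2 ratio of -3.30 (-3.65 to -2.99; exact binomial test, adjusted p = 5.69e-209), and -1.24 for coding transcripts alone. Timm13 had -1.07 (-1.21 to -0.93) and Timm17a -1.03 (-1.84 to -0.33), both close to the 2-fold limit, and with DESeq2 size factors neither was called, nor was Timm13 with coding transcripts alone. Timm10 was at least 12.9-fold and Timm9 at least 11.8-fold higher in replicate 1, taking 3 counts for the 0 in replicate 2. Timm21, with a mean under 1 CPM, was not tested. Its 38 and 0 counts give 1.89-fold with 3 counts for the 0, and its exact interval reaches a log2 ratio of -0.55. In scaled counts each of these genes was higher in replicate 1, with all transcripts and with coding transcripts alone. For Timm17a the coding counts were 132 and 4, whereas its coding TPM went the other way, with 0.93 in replicate 1 and 1.06 in replicate 2.

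Timm29 was the only member called higher in replicate 2, 2.32-fold (log2 1.22, 1.11 to 1.33; exact binomial test, adjusted p = 2.84e-90), and with total counts as the scaling it fell short of 2-fold. Timm50 had a log2 ratio of 0.99 (0.90 to 1.08), just short of 2-fold with TMM and past it with DESeq2 size factors (1.06). For the coding transcript of Timm50 the ratio was -1.72, which was called higher in replicate 1. The deposited gene length of Timm50, an average over its transcripts, was 808 bases in replicate 1 and 472 in replicate 2, so its TPM ratio of 1.80 on the log2 scale was larger than its count ratio. Timm44 went from 0.42 to 1.07 with coding transcripts alone and was then called higher in replicate 2. Tomm40l turned from -0.16 to 0.94 in the same change, without a call. Timm10b turned from 0.13 to -0.87, also without a call, but was at 0.05 (907 and 127 coding counts) once the Gm45799 transcripts were left out, so that turn is carried by transcripts of the other gene. With coding transcripts alone 22 members were tested, 9 were called higher in replicate 1 and 2 higher in replicate 2, beside 31.8% and 19.3% of all genes; Timm50 joined the first and Timm13 left it, and Timm44 joined the second.

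**Figure D4:**
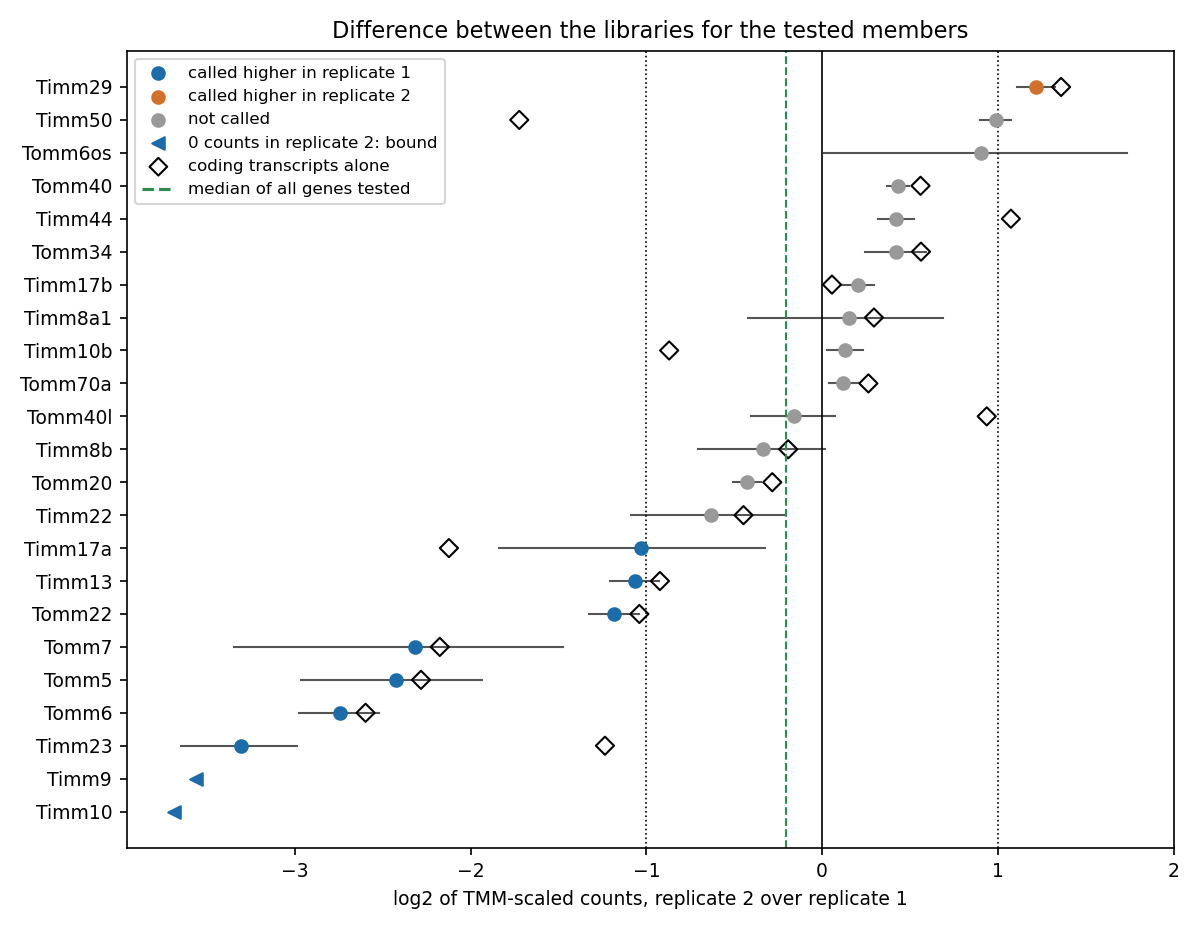
Log2 ratio of TMM-scaled counts, replicate 2 over replicate 1, for the 23 tested members, with 95% exact intervals for counting error; colour marks the call, triangles are bounds for 0 counts and open diamonds are coding transcripts alone. Dotted lines mark 2-fold and the dashed line the median of all genes tested (-0.20). The members span from 1.22 for Timm29 to -3.30 for Timm23 and the bounds of Timm9 and Timm10, and the open diamonds lie far from the filled points for Timm50, Timm23, Timm17a, Tomm40l, Timm10b and Timm44.

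Length moved with the difference across all genes, with each gene's length taken as deposited for replicate 1, an average over its transcripts. The median log2 ratio over all genes tested was -0.49 for a mean length below 600 bases, -0.68 from 600 to 1000, -0.29 from 1000 to 2000, -0.11 from 2000 to 4000 and 0.00 above. Higher in replicate 1 were called 1 of 4 members below 600 bases (38.4% of all genes there), 5 of 7 from 600 to 1000 (40.8%) and 3 of 7 from 1000 to 2000 (32.7%). Among the longer members it was 0 of 4 from 2000 to 4000 (26.9% of all genes there) and 0 of 1 above (20.4%). Some members fall in another length range by the length of replicate 2. These are Timm23 (492 bases in replicate 1 and 712 in replicate 2), Timm50 (808 and 472), Timm17a (902 and 537) and Tomm5 (660 and 572). The part of length in the members' differences was not tested.

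Other genes of the import pathway were read from a list of 26 names, of which 18 were detected. Of 23 tested, 8 were called higher in replicate 1 (34.8%) and 5 higher in replicate 2 (21.7%), near the 30.0% and 17.9% of all genes tested, with a median log2 ratio of -0.69. The highest mean levels were those of Mtx1, a metaxin of outer membrane sorting (230 and 749 TPM), Pmpca, the alpha subunit of the presequence peptidase (360 and 216 TPM), and Romo1, a small inner membrane protein of TIM23 (328 and 235 TPM). Mtch1, a relative of the outer membrane insertase Mtch2, followed with 123 and 240 TPM, and Pam16, of the import motor, with 52.1 and 165 TPM. Coding transcripts held 100% of Romo1 and at least 99.2% of Mtch1, but only 16.3% and 2.24% of Mtx1 and 5.78% and 2.51% of Pmpca.

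The calls higher in replicate 2 were Mtx1 (2.92-fold), Mtx2 (3.17-fold), Mtch1 (2.13-fold), Pam16 (3.22-fold) and the peptidase Mipep (2.397-fold). With coding transcripts alone Mtch1 (log2 ratio 1.24) and Mipep (1.40) were called, and Mtx1 (-0.81), Mtx2 (-0.16) and Pam16 (0.46) were not, Mtx1 and Mtx2 with the opposite sign. Coding transcripts held 4.29% and 1.03% of the Mtx2 level and 55.6% and 19.3% of that of Pam16. The calls higher in replicate 1 included the motor genes Dnajc19 (7.56-fold) and Grpel1 (6.96-fold), the peptidase genes Pmpcb (4.54-fold) and Xpnpep3 (2.24-fold) and the chaperonin gene Hspd1 (2.11-fold, and not called with coding transcripts alone). In the disulfide relay, which folds the small TIM proteins, Aifm1 was 11.6-fold higher in replicate 1 from 711 and 9 counts. Chchd4, the oxidoreductase of the relay, had 272 counts in replicate 1 and 1 in replicate 2 (36.01-fold, 95% exact interval 7.22 to 1608), and Agk, a TIM22 subunit, had 178 and 3 (8.52-fold, 2.98 to 43.3). Gfer, the sulfhydryl oxidase of the relay, had 38.8 and 27.8 TPM and was not called. Chchd4 helps to fold the Timm9 and Timm10 proteins. Counts of 0 or 1 in replicate 2 were not limited to these genes: Timm21 had 38 and 0, and the peptidase gene Immp1l had 155 and 1. The share of all genes of like level that fell this far was not computed.

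For comparison, 65 of 77 mitochondrial ribosomal protein genes were detected. Of 70 tested, 28 were called higher in replicate 1 (40%) and 7 higher in replicate 2 (10%), with a median log2 ratio of -0.81. Of the nuclear complex I genes 35 of 37 were detected. Of 36 tested, 23 were called higher in replicate 1 (63.9%) and 3 higher in replicate 2 (8.33%), with a median of -1.86. Over all genes tested the shares were 30.0% and 17.9%. With TMM and all transcripts, the Tomm and Timm median of -0.34 lay nearer to that of all genes than either. With coding transcripts alone the Tomm and Timm median was -0.66, beside -0.22 for all genes. The ribosomal protein and complex I medians were not computed in that setting. These are descriptions of the same pair of libraries.

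Promoter sequence was read from RefSeq for the 22 protein-coding members that matched by symbol (GRCm38.p6, 250 bases before to 50 after each start). The ETS motif CCGGAAG, searched on both strands, was present in 9 of 22 members (40.9%), beside 9.93% of all 27025 genes in the table and 25.5% of the 5707 detected protein-coding genes. The NRF1 motif GCGCATGCG was present in 1 member, Timm13, beside 1.95% of all genes and 5.57% of detected ones. The GATA motif AGATAA was present in 3 members, Timm9, Tomm20l and Tomm6 (13.6%), beside 12.7% of all genes and 6.80% of detected ones. The 22 members include genes not detected, among them Timm9 and Tomm20l with the GATA letters and Timm10 and Timm8a2 with the ETS letters. Their shares are therefore not those of detected members. A match describes letters in a window and is not a binding site. Windows of the 7 called members with a match follow, with the motif in capitals on the strand of the gene, so that a motif on the other strand reads in reverse complement. They lie at chr10:80901144-80901172, chr14:32201921-32201949, chr15:79670810-79670838, chr2:84826994-84827022, chr9:21592499-21592527, chr17:47688434-47688463 and chr12:71136791-71136820, in the order printed.
Timm13, NRF1: ttatattgtaCGCATGCGCagcggggagg
Timm23, ETS: cgcgcttcccaCTTCCGGgccgcacacag
Tomm22, ETS: agcccggctcgCTTCCGGaagacgctctg
Timm10, ETS: gtcggcgttttCTTCCGGatcaaagaaga
Timm29, ETS: agctctgaccaCTTCCGGgctccactcac
Tomm6, GATA: acttatgtagcgAGATAAcaaggctgtgct
Timm9, GATA: gcactgacgaacAGATAAtcacaaaagtta

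The ETS matches shown begin 47 bases before the start in Timm23 and Tomm22, 16 before it in Timm10 and 212 before it in Timm29. Further ETS matches begin after the start, at base 11 in Timm23, base 6 in Tomm22 and bases 14 and 17 in Timm10. Of the 7 genes shown, Timm29 was called higher in replicate 2 and the others higher in replicate 1, so genes with the ETS letters stand on both sides. The Tomm22 window continues into an overlapping match on the other strand, and these matches count once in the number of genes. Promoter activity was not measured here.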

How the data were processed

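Polyadenylated RNA of G1E-ER4 cells after estradiol was measured in 2 libraries. The authors deposited estimated counts, TPM and FPKM per gene and per transcript, with each transcript's percent of its gene, made on mm10 with GENCODE M4, per the labels and the text deposited beside the tables. Aligner, quantification tool, filters and strand use were not given in the sources used here. Symbols, transcript types and positions came from GENCODE M21, which named 42462 of 43346 genes.

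The members, gene lists and tests were chosen with earlier results of these data known. Every member is named, with values for the 5 highest and 3 lowest detected members, each called member and the paralog pairs, and, of the other import genes, the 5 highest and each called gene. Levels are TPM, detected at 1 TPM or more in both libraries. Rounded counts were scaled with edgeR 4.0.16 TMM (factors 1.15 and 0.871). Genes averaging 1 CPM or more were put to exact binomial tests, Benjamini-Hochberg adjusted, and called at 2-fold. A quasi-likelihood test could not be fitted with 1 library on each side. Log2 ratios used a prior count of 0.5, and a 0 was bounded at 3 counts. Log2 ratios of TPM and of summed TPM used a pseudocount of 0.1 TPM, and coding shares used none. On simulated counts with counting error only, 100 of 100 genes at 3-fold, 100 of 100 at 8-fold and 3 of 8645 unchanged genes were called. Alternatives were other minimum levels, units, scalings, filters and folds, posterior means, and coding transcripts alone, the last, Timm10b without the Gm45799 transcripts and the bound for 0 counts being added after seeing the data. Protein sequences were not analysed here. Python 3.11.15 with pandas 2.3.3, scipy 1.17.1 and matplotlib 3.10.9, R 4.3.3 and DESeq2 1.42.0 were used.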

Additional observations from a re-analysis of the deposited data

How the results depend on the processing

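The outer over inner log2 ratio of -0.90 kept its sign with a pseudocount of 1, posterior means and Tomm34 left out, and without the small TIM genes it was 0.31 in replicate 1 and -0.71 in replicate 2 (mean -0.20). It turned positive with TMM-scaled CPM, which is not corrected for length (0.31), with a ratio of medians (0.93) and with coding transcripts alone (0.78). The median TPM was 33.5 over detected members, beside 20.98 over all protein-coding members. Of members, 4 were called higher in replicate 1 with a mean CPM of 10, which tests 14 members, and the number higher in replicate 2 was 2 with DESeq2 size factors, 0 with total counts, 3 at 1.5-fold, 9 with no minimum fold and 2 with coding transcripts alone. The median log2 ratio of -0.34 was -0.78 with total counts, -0.66 with coding transcripts alone, -0.54 as a ratio of TPM and 0.13 with a mean CPM of 10. Total counts moved the median of all genes to -0.61 and the share of calls higher in replicate 1 from 62.6% to 79.1%; a mean CPM of 10 gave 54.0% and no filter 50.4%. With total counts Timm10b (-0.27), Timm17b (-0.20), Tomm70a (-0.28) and Timm8a1 (-0.24) changed sign, and with coding transcripts alone Timm10b (-0.87, or 0.05 without the transcripts of Gm45799), Timm50 (-1.72) and Tomm40l (0.94) did; beyond the Gm45799 transcripts, the cause was not tested. No paired analysis was possible because the labels give 1 group. Leaving out a library leaves no comparison between libraries. Depth limits replicate 2: 3 counts there are 0.217 CPM.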
